A study of Homo sapiens with 4 samples.

Results

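The AP-1 genes described here are FOS, FOSB, FOSL1, FOSL2, JUN, JUNB, JUND, ATF3, BATF and BATF3, and their data are the ATAC-seq peaks assigned to them. A peak was assigned when it carried one of these symbols in the authors' deposited table, or when one of these genes was the nearest protein-coding gene (RefSeq, GRCh38.p14) within 100 kb. The rule gave 50 of 60875 peaks and at least 2 peaks for each of the 10 genes. Of these, 14 met both criteria, 35 were assigned by nearness alone and 1 by its symbol alone. ATAC-seq maps open chromatin by the insertion of sequencing adapters with the transposase Tn5. The cells were cardiac progenitors on day 6 of differentiation from the wild-type human line WTC11, an established line of induced pluripotent stem cells. Both groups went through the same differentiation: 2 libraries, labelled high, came from progenitors with a high terminal purity of cardiomyocytes, and 2, labelled low, from progenitors with a low one. The comparison asks which open regions of the progenitors differ with that outcome. The values analysed here are 1 mean count, 1 log2 fold change and 1 standard error (SE) per peak, with no value per library, so the depth of each library is unknown. Peaks marked Up in the authors' deposited table have negative fold changes and those marked Down positive ones. Neither the table nor the labels say which group is the numerator, so differences are named by side and assigned to neither group. The libraries are bulk samples, and fewer cells of a type with an open region cannot be told apart from less opening per cell.

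AP-1 is a dimer of basic leucine zipper (bZIP) proteins. JUN proteins pair with one another or with FOS proteins, while FOS proteins need a JUN partner, and the dimer binds the palindrome TGANTCA and, less readily, the cyclic AMP response element (CRE) TGACGTCA. Many AP-1 genes are immediate early genes, transcribed within minutes of growth factor, stretch or stress signals through MAP kinases. In the heart AP-1 is best known for its induction by stretch and hypertrophic stimuli, and in mice loss of Jun is lethal in the embryo, with defects of the liver and of the cardiac outflow tract.

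No peak on the promoter window of an AP-1 gene passed, and 5 genes had such a peak. Few promoter peaks of any gene did: 0.531% of 10171 passed as Up and 0.295% as Down. The 95% intervals of the 5 leave out differences above 1.52-fold. Peaks over the starts of FOSL1 and BATF3, whose windows were not matched, did not pass either, with intervals reaching 1.74-fold and 1.68-fold. The 2 peaks that changed were distal ones, near FOS and BATF3. Both lay on the Down side, at log2 fold changes of 1.49 ± 0.46 and 1.63 ± 0.40 (SE) by the authors' deposited table. In the authors' deposited table no AP-1 peak passed on the Up side at an adjusted p under 0.05 (DESeq2's Wald test with Benjamini-Hochberg adjustment over all peaks), where 2.36% of all peaks did, and 2 of 50 (4.0%) passed on the Down side, where 3.64% of all peaks did. Among peaks within 100 kb of a protein-coding gene the shares were 2.32% and 3.09%. These shares are near the background, so the counts are no result about the family. At an unadjusted p under 0.05, 3 AP-1 peaks were negative and 3 positive by the authors' deposited table, where 7.80% and 8.60% of all peaks were; together this is 12.0% against 16.4%. The authors' own marks, which ask for at least 1 log2 unit and an unadjusted p under 0.05, took 2 AP-1 peaks as Up (4.86% of all peaks) and 3 as Down (4.98%). At an adjusted p under 0.01, 0 were Up (1.06% of all peaks) and 1 was Down (2.05%), and at under 0.1, 0 were Up (3.60%) and 3 were Down (4.77%), by the authors' deposited table. Over the 50 peaks the median log2 fold change was 0.014, against 0.0015 over all peaks, and 24 of the 50 were negative. The quartiles stood at -0.33 and 0.16, against -0.33 and 0.30 over all peaks.

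**Figure D1:**
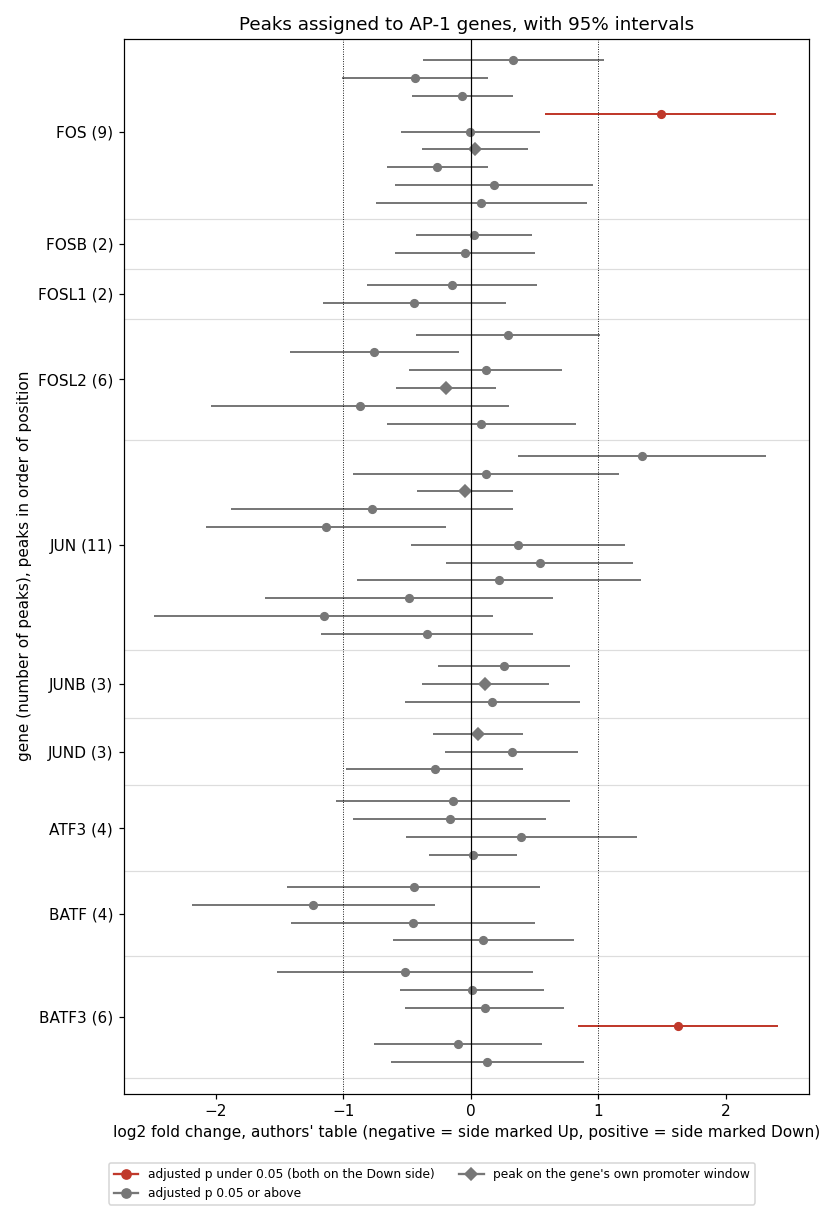
Log2 fold change of each of the 50 AP-1 peaks with its 95% interval, from the authors' fold change and SE, by gene and in order of position. Dotted lines mark a 2-fold difference on either side (log2 values of -1 and 1). The 2 red points, near FOS and BATF3, have an adjusted p under 0.05, and the 5 diamonds, peaks on a matched promoter window, lie between -0.19 and 0.11.

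Peaks lay on the matched RefSeq promoter windows of 5 AP-1 genes, and the 250 bases before these starts are shown because peaks with some of the smallest fold changes of the family lie on them. They are written 5′ to 3′ on the gene's strand from RefSeq (GRCh38.p14). Capitals mark matches on either strand to 5 motifs: TGANTCA, the AP-1 palindrome; the longer palindrome TGANNTCA, which includes the CRE; the core of the CRE, TGACG; the CCAAT box; and the TATA box, searched as TATAAA. The windows are FOS (chr14:75278578-75278827, plus strand), FOSL2 (chr2:28392608-28392857, plus), JUN (chr1:58784048-58784297, minus), JUNB (chr19:12791236-12791485, plus) and JUND (chr19:18281623-18281872, minus).
FOS: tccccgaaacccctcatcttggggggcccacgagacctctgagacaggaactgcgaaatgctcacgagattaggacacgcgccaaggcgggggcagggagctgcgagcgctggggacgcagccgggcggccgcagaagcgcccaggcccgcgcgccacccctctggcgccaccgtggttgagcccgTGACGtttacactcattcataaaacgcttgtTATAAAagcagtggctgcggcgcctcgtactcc
FOSL2: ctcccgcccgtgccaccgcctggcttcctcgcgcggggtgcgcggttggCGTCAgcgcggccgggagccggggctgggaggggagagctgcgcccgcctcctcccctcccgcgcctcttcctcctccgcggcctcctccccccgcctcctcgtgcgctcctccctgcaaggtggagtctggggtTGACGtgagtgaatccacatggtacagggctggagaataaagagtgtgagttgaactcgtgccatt
JUN: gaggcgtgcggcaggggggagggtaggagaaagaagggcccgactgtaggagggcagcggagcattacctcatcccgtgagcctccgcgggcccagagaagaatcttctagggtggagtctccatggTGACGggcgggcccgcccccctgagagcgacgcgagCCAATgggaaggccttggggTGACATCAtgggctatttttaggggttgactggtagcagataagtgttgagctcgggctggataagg
JUNB: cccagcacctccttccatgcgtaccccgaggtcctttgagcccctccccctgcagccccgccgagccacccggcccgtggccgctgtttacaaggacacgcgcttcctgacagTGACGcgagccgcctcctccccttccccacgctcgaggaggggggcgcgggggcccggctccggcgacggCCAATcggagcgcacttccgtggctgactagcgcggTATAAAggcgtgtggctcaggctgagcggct
JUND: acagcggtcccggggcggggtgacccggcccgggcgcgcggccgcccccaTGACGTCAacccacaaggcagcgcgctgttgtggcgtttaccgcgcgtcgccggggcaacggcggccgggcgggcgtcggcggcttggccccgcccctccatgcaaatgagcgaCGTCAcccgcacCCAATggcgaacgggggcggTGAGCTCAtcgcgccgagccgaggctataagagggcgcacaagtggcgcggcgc
Each of the 5 windows holds TGACG or its complement, the core of the CRE, which 24.2% of 22199 RefSeq promoter windows of protein-coding genes hold at this length. Of the 9 matched windows of AP-1 genes 6 hold it, and those of BATF and ATF3 do not. The JUND window alone holds the full CRE, beginning 200 bases before the start (2.01% of all windows). The JUN window holds TGACATCA beginning 67 bases before the start, and JUND holds TGAGCTCA beginning 54 bases before it. TGANNTCA is found in 8.72% of all windows. No matched window of an AP-1 gene holds TGANTCA (5.36% of all windows) or the CArG box, the motif of serum response factor (1.18%). Only the 250 bases before each start were searched, so either motif may lie further upstream. The TATA box begins 33 bases before the start of FOS and 31 before that of JUNB (9.00% of all windows). RefSeq promoter windows were matched for 8 of the 10 genes, 9 windows in all, since ATF3 has a pair of them; FOSL1 and BATF3 were not matched. FOSL1 and BATF3 lie on the minus strand, so that a peak over the upper end of each covers its start. The matched windows of FOSB, BATF and ATF3 have no peak on them in the authors' deposited table. FOSB shares with FOS the CRE core and a TATA box, beginning 60 and 30 bases before its start. A motif match describes letters in the window and shows no binding.

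FOS is the prototype immediate early gene of the family, and its promoter peak was among the least changed. The peak on the FOS start (chromosome 14, 75278276 to 75279181) had a mean normalized count of 266 and a log2 fold change of 0.034 ± 0.21 (SE) by the authors' deposited table (adjusted p = 0.975). Its 95% interval ran from -0.38 to 0.44, which leaves differences of more than 1.36-fold outside it in either direction. A second peak, 1431 bp before the gene, stood at -0.0026 ± 0.27 (SE, mean count 109) by the authors' deposited table. In all 9 peaks lay nearest to FOS, between 43957 bp before the gene and 28340 bp after it, and only 1 of them passed.

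That peak lies at chromosome 14, 75267188 to 75267594, 11234 bp before FOS. It overlaps no RefSeq gene, and the next nearest protein-coding gene, TMED10, is 90576 bp away. In the authors' deposited table it had a mean count of 33.9 and a log2 fold change of 1.49 ± 0.46 (SE, 2.81-fold, adjusted p = 0.0255), on the Down side. Its 95% interval was wide, from 1.51-fold to 5.23-fold. Its neighbours stood near 0. The peak 7763 bp before it, the most counted of the locus at a mean count of 327, stood at -0.066 ± 0.20 (SE, adjusted p = 0.945) by the authors' deposited table, and the peak 9372 bp after it is the one at -0.0026. Beyond the gene, a peak with a mean count of 285 overlaps the long noncoding RNA gene LINC01220, whose symbol it carries, and stood at -0.26 ± 0.20 (SE, adjusted p = 0.606) by the authors' deposited table. In mouse neurons, distal enhancers on both sides of Fos are known to drive its transcription on stimulation. Whether any of these human peaks acts on FOS was not measured.

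**Figure D2:**
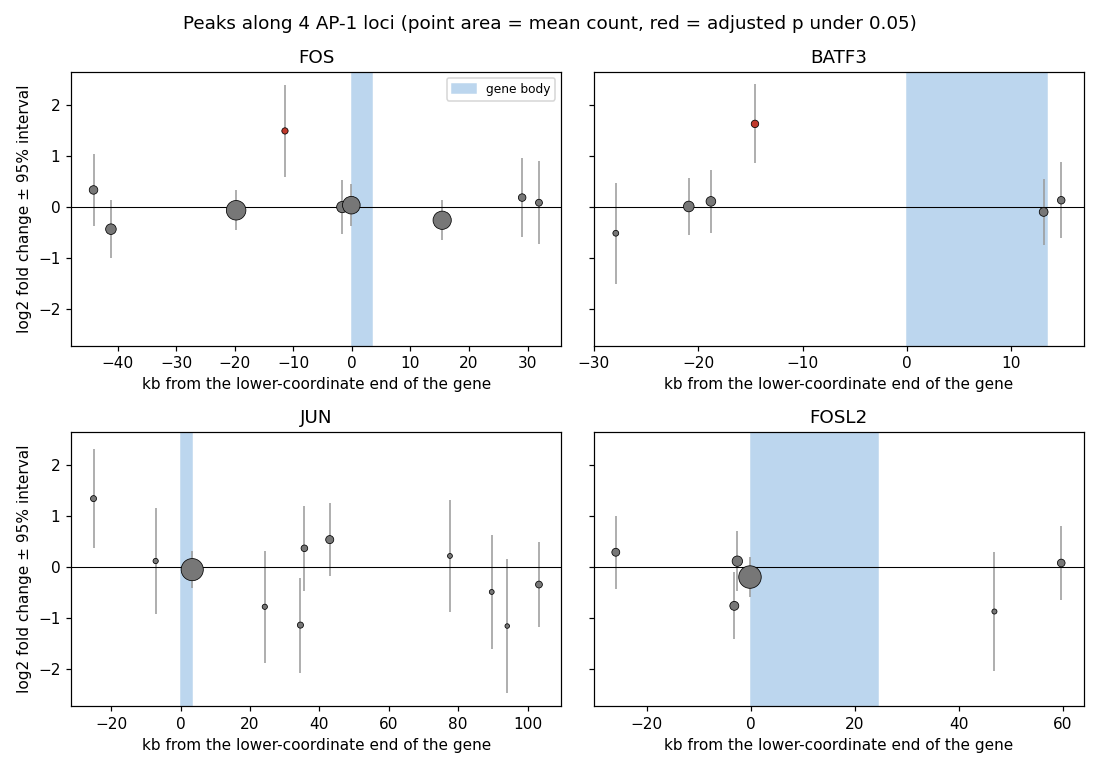
Log2 fold change with its 95% interval (vertical axis) of every peak assigned to FOS, BATF3, JUN and FOSL2, by distance in kb from the lower-coordinate end of each gene (blue). Point area is the mean count; the changed peaks (red) near FOS and BATF3 have small points, while the large points on and near the genes lie close to 0.

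The FOS subfamily also holds FOSB, known for a stable truncated splice form in brain, and FOSL1 and FOSL2, which encode FRA-1 and FRA-2 and lack the C-terminal activation domain of FOS. FOSB had 2 peaks, both near 0. The peak inside the gene stood at 0.025 ± 0.23 (SE, mean count 185) and the other, 3243 bp away, at -0.042 ± 0.28 (SE, mean count 104) by the authors' deposited table. That second peak carries the symbol of ERCC1, a DNA repair gene, and overlaps TRU-TCA1-1, a gene of the selenocysteine transfer RNA. FOSL1 had a peak over its start at -0.14 ± 0.34 (SE, mean count 92.6) and a peak 2572 bp away at -0.44 ± 0.36 (SE, mean count 64.8) by the authors' deposited table, and neither passed. At FOSL2 the promoter peak was strong, with a mean count of 434, and stood at -0.19 ± 0.20 (SE, adjusted p = 0.751) by the authors' deposited table. A weaker peak 3022 bp before FOSL2, inside the antisense gene FOSL2-AS1, had the lowest p of that locus, at -0.76 ± 0.33 (SE, adjusted p = 0.194) by the authors' deposited table. The peak 2413 bp before FOSL2, close to it, stood at 0.12 ± 0.30 (SE) by the authors' deposited table. Over the 19 peaks of the 4 FOS subfamily genes the median was -0.0026.

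JUN, JUNB and JUND encode the partners that all FOS proteins need; JUND is the most constantly expressed of them, and JUNB is often a weaker activator than JUN. Their promoter peaks were close to 0. The JUN peak (chromosome 1, 58783808 to 58784471) stood at -0.048 ± 0.19 (SE, mean count 420, adjusted p = 0.960) by the authors' deposited table, with an interval that leaves out differences above 1.33-fold. The JUND peak (chromosome 19, 18281107 to 18282348), the widest of the family at 1241 bp, stood at 0.057 ± 0.18 (SE, mean count 484, adjusted p = 0.945) by the authors' deposited table. The JUNB peak (chromosome 19, 12791276 to 12791681) covers 210 of the 250 bases shown above. It also lies within HOOK2, a gene that overlaps JUNB, so that both genes are equally near. It stood at 0.11 ± 0.25 (SE, mean count 135, adjusted p = 0.916) by the authors' deposited table. A second peak with the symbol JUNB lies within HOOK2 and stood at 0.26 ± 0.26 (SE, adjusted p = 0.747) by the authors' deposited table.

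JUN had the most peaks, 11, and the widest spread around a promoter peak near 0. From -1.15 to 1.34 log2 units by the authors' deposited table, the other 10 lay on both sides, and none passed. The smallest p was that of a peak at chromosome 1, 58755544 to 58755825, 24966 bp from the gene, at 1.34 ± 0.49 (SE, mean count 30.9, adjusted p = 0.0828) by the authors' deposited table, which the authors mark Down. Another, named after its value was seen because the authors mark it Up, lies 31110 bp upstream of the start and stood at -1.13 ± 0.47 (SE, mean count 32.1, adjusted p = 0.158) by the authors' deposited table. These peaks are thinly counted: all 10 have mean counts between 17.6 and 55.7. Of the 11 peaks, 8 overlap JUN-DT, the divergent long noncoding RNA gene beside JUN, and 5 of these were negative and 3 positive. The last lies 99873 bp from JUN, just within the limit, at -0.34 ± 0.42 (SE) by the authors' deposited table. The first peak beyond the limit, 101194 bp away, stood at -0.22 ± 0.46 (SE) by the authors' deposited table. JUND and JUNB had 3 peaks each, from -0.28 to 0.32 by the authors' deposited table. The JUND peak with the smallest p lies 10176 bp from the gene and stood at 0.32 ± 0.26 (SE, mean count 125, adjusted p = 0.643) by the authors' deposited table.

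ATF3 encodes a stress-induced factor that represses as a homodimer and can activate with JUN. It had the most strongly counted peak of the family, with a mean count of 511, and that peak was almost level. It lies within the gene (chromosome 1, 212608217 to 212608963), its middle 6428 bp from the nearer of the gene's starts in the RefSeq promoter table, and stood at 0.020 ± 0.17 (SE, adjusted p = 0.981) by the authors' deposited table. ATF3 is known to have alternative promoters, and no peak lay on either of the matched windows. These windows may not hold every start of ATF3, so whether the strong peak lies on a promoter was not determined. The peak with the lowest p at ATF3, also within the gene, stood at 0.40 ± 0.46 (SE, adjusted p = 0.795) by the authors' deposited table. The ATF3 peak whose middle is nearest a matched start, 6356 bp before it, stood at -0.16 ± 0.38 (SE) by the authors' deposited table.

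BATF and BATF3 encode short bZIP proteins without an activation domain, which act with JUN proteins and with interferon regulatory factors in lymphocytes and dendritic cells. Per kb of width they had the weakest leading peaks of the family. BATF had 4 peaks, none over the gene, with mean counts from 26.7 to 57.5. The most counted stood at 0.099 ± 0.36 (SE) by the authors' deposited table. A BATF peak 689 bp before the gene (chromosome 14, 75521437 to 75521780) stood at -1.23 ± 0.48 (SE, mean count 34.3, adjusted p = 0.115) by the authors' deposited table. The authors mark it Up, but it did not pass. BATF3 had 6 peaks, of which that over the start of the gene stood at -0.098 ± 0.33 (SE, mean count 66.0) and the most counted at 0.0087 ± 0.28 (SE, mean count 97.1) by the authors' deposited table.

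The changed peak near BATF3 lies at chromosome 1, 212671667 to 212672046, 14371 bp from the gene. It overlaps no RefSeq gene and is 44892 bp from GARIN4, the next nearest protein-coding gene. With a mean count of 47.9 it stood at 1.63 ± 0.40 (SE, 3.09-fold, 95% interval 1.81-fold to 5.29-fold, adjusted p = 0.00215) by the authors' deposited table. The peak 3806 bp from it stood at 0.11 ± 0.32 (SE, adjusted p = 0.942) by the authors' deposited table, and the next on its other side, 27060 bp away over the start of BATF3, is the one at -0.098. As at FOS, a peak outside any gene changed between neighbours near 0; the BATF3 one is close to the table's median mean count of 47.8, and the FOS one is below it.

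The precision of these values followed the counts. Across the 50 peaks the SE fell with the mean count (Spearman's rho -0.995, a description; the SE is in part computed from the count). At its SE, the ATF3 peak with the highest count would have passed at 0.51 log2 units and the weakest JUN peak at 2.0, with a median of 1.07 over the 50. The 95% interval lay within a 2-fold difference on both sides for 27 of 50 AP-1 peaks (54.0%), against 39.1% of all peaks. It did so for 9 of the 10 that overlap their gene and 18 of the 40 outside it. Over all peaks it did so for 47.8% on a protein-coding gene body and 30.9% outside one within 100 kb. At 29 of the 40 outside, a value of 1 log2 unit, a 2-fold difference, would not have passed at the peak's SE. The same held at 12985 of all 17110 peaks outside a gene body within 100 kb. The low counts also leaned to negative values: the 18 AP-1 peaks below the median mean count of the table (47.8) had a median of -0.39, against -0.072 for all peaks below it. The 32 at or above it had a median of 0.030, against 0.045. The part of the mean count in these medians was not tested.

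**Figure D3:**
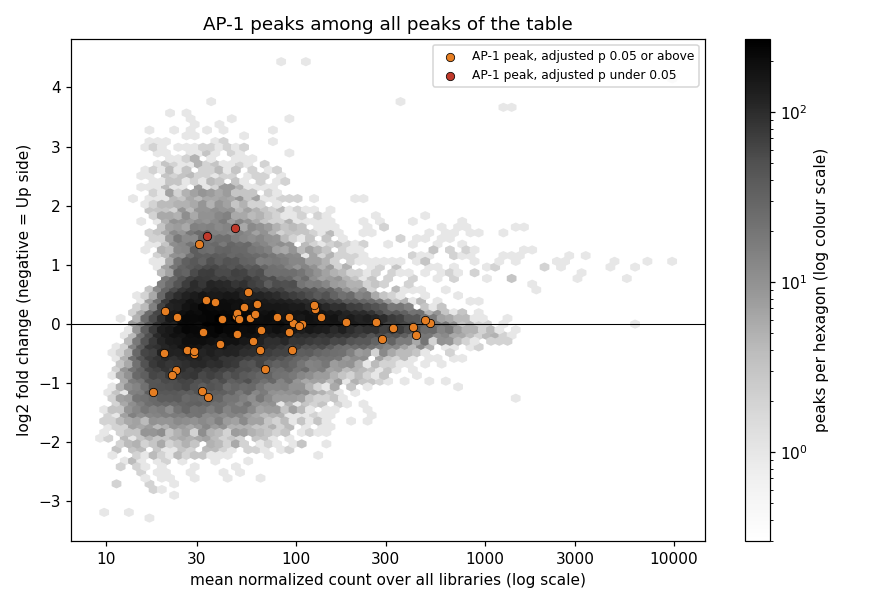
Log2 fold change against mean count (log axis) for all peaks of the table (grey hexagons, darker for more peaks) and the 50 AP-1 peaks (points). Above a mean count of 100 the AP-1 peaks lie between -0.26 and 0.32, and both changed ones (red) have mean counts under 48.

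Few promoter peaks passed in this comparison. None of the 5 on matched AP-1 windows did; of the 10171 peaks on any protein-coding promoter window, 0.531% passed as Up and 0.295% as Down. At an unadjusted p under 0.05 the 5 also gave 0 peaks, against 5.04% of all promoter peaks. The median absolute log2 fold change was 0.057 for the 5 and 0.17 for all promoter peaks. The 5 also had a higher median mean count, 420 against 134, and a lower median SE, 0.20 against 0.26. The part of this precision in their smaller fold changes was not tested. Per kb of peak width the 5 had a median mean count of 390, against 192 for all promoter peaks. The peaks over the starts of FOSL1 and BATF3, which are not among the 5, had 207 and 75.6 per kb. The JUND promoter peak and the strong ATF3 peak fall in the top 1% of all peaks by mean count. Among the 26 AP-1 peaks more than 10 kb from their gene, 0 passed as Up and 2 as Down. Of all peaks at that range 3.05% passed as Up and 4.19% as Down.

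Ordered by the strongest peak per kb of width, ATF3 led with a mean count of 684 per kb, followed by FOSL2 with 660 and JUN with 633. FOS followed with 436, JUND with 390 and JUNB with 335, and FOSB with 252, FOSL1 with 207, BATF3 with 172 and BATF with 169 came last. These are levels over both groups together; without values per library the spread behind neighbours in this order could not be examined.

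In 4 lists of genes around AP-1 the share of peaks that passed ran from 0 to 3.45% on the Up side and from 0.862% to 4.26% on the Down side, against 2.36% and 3.64% of all peaks; differences between the lists were not tested. Of 94 peaks of 20 other bZIP factors, 0 passed as Up (adjusted p under 0.05 in DESeq2) and 4 (4.26%) as Down, 1 each near CREM, CREB5, NFE2L2 and BACH1. In the authors' deposited table these peaks stood at 1.80 ± 0.35 within CREM, a cyclic AMP responsive factor, and at 1.63 ± 0.38 (SE) within CREB5. The NFE2L2 peak, near the gene of the antioxidant regulator NRF2, stood at 1.53 ± 0.47 and that of BACH1, a repressor at the same sites, at 1.80 ± 0.54 (SE) by the authors' deposited table. JDP2, a repressive AP-1 partner that lies between FOS and BATF, had 4 peaks and none passed. Of 87 peaks of 20 genes that feed or restrain AP-1 through MAP kinases, 3 passed on each side. They were MAP2K1 (-0.88 ± 0.25, SE), DUSP4 (-1.58 ± 0.52) and DUSP5 (-1.47 ± 0.33) on the Up side by the authors' deposited table, the last 2 being phosphatases that switch MAP kinases off. MAP2K6 (1.70 ± 0.36, SE), which activates p38, MAPK10 (1.42 ± 0.45) and another peak of DUSP5 were on the Down side by the authors' deposited table. Of 116 peaks of 22 other immediate early genes, BTG2 (-1.30 ± 0.33, SE) and KLF6 (-1.04 ± 0.31) each had 1 Up peak and ZFP36L1 (0.90 ± 0.25) had 1 Down peak by the authors' deposited table. Of 52 peaks of 17 textbook AP-1 targets, HMOX1 (-1.51 ± 0.46, SE) had 1 Up peak and SPP1 (1.83 ± 0.50) had 1 Down peak by the authors' deposited table. The medians of the 4 lists ran from -0.023 to 0.047.

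**Figure D4:**
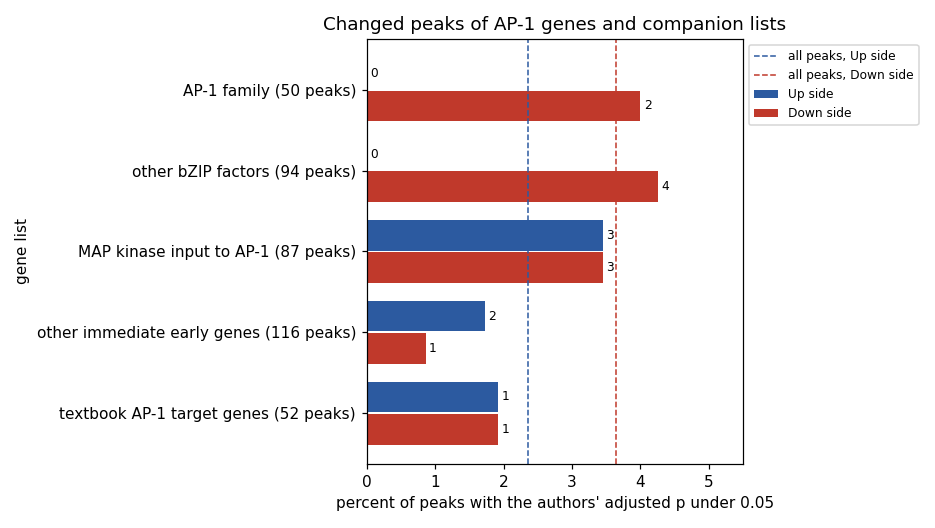
Percent of peaks with an adjusted p under 0.05, Up (blue) and Down (red), for the AP-1 genes and 4 companion lists, with the number of peaks at each bar. Dashed lines give the shares over all peaks, 2.36% for Up and 3.64% for Down; the AP-1 bars stand at 0 and 4.0%.

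Peaks were also assigned to markers of the cell types the cultures could hold. All 8 cardiac progenitor markers had a peak, and so did 4 of 5 of pluripotent cells (DPPA4 had none) and all 5 each of endoderm, endothelium and of fibroblasts and smooth muscle, so presence of a peak did not set the lists apart. Summed mean counts per gene ran from 52.8 to 1440 for the first list, 30.7 to 413 for pluripotency, 62.9 to 481 for endoderm, 49.7 to 631 for endothelium and 116 to 1003 for the last. On the Down side, with the FOS and BATF3 peaks, lay 3 of 18 fibroblast and smooth muscle peaks, 2 of 26 endothelial, 1 of 57 cardiac progenitor, 0 of 24 endoderm and 0 of 14 pluripotency peaks, where 3.64% of all peaks passed. THY1 held 2 of the 3 fibroblast and smooth muscle peaks. On the Up side, where 2.36% of all peaks and no AP-1 peak passed, lay 10 of 24 endoderm (41.7%), 3 of 57 cardiac progenitor (5.26%) and 1 of 26 endothelial peaks (3.85%), and none of the other 2 lists. Of the 10 endoderm peaks 7 belong to 1 gene, FOXA2, and 1 each to SOX17, HNF4A and APOA1. The part of cell makeup in the AP-1 values was not tested.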

How the data were processed

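Per the labels' protocols, 50000 to 100000 cells per sample were harvested on day 6, and paired reads of 42 bp were sequenced; the labels name total RNA as the molecule, at odds with ATAC-seq. They call the 2 libraries of each group biological replicates without saying how they were separated, so the p-values reflect only how these libraries vary, which may be technical. Per the submitters' processing notes the tools were BWA, MACS2 and DESeq2 and the build GRCh38 (hg38), without versions or roles. Tn5 shifting, duplicate removal and pooling of libraries for peak calling, all not given in the sources used here, can change a peak's count. Per the file headers, the deposited table gives each peak's mean normalized count (a signal over all libraries), log2 fold change with SE, Wald score, and p-value with its adjusted value. The deposited score equalled fold change over SE to within 1.7e-07, and the authors' marks followed their rule with 0 exceptions.

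No test of this work's own was run. Coordinates are as deposited; the table does not say if starts count from 0 or from 1. The 10 genes, the lists and the alternatives were chosen with earlier results of these data known. Named peaks were, per gene, the most counted, that nearest a start, that with the smallest p, and each that passed; for companion lists, genes with a passing peak (23 AP-1 peaks named by this rule, 2 passing). Intervals are fold change ± the normal 95% quantile times SE. Procedures were tested on simulated fold changes (Python 3.11.15, pandas 2.3.3, SciPy 1.17.1).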

Additional observations from a re-analysis of the deposited data

How the results depend on the processing

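No paired analysis was possible because the values analysed are not split by library; nor could leaving out each library, the TMM and DESeq2 scalings or a count test be run. The count of 0 AP-1 peaks on the Up side was the same under every alternative run except the authors' mark, which gave 2. The 2 on the Down side became 1 at an adjusted p under 0.01, 1 without the gene FOS and 1 without the gene BATF3. They became 1 of 32 once peaks under the median mean count were left out. At the authors' adjusted p, 4.11% of all peaks at or above that median passed as Down. The AP-1 count became 0 of 15 with GeneSymbol only, where 0.855% of all peaks with a symbol passed as Down. It became 0 of 24 at a distance of at most 10 kb. That cut leaves out both changed peaks, which lie 11234 bp from FOS and 14371 bp from BATF3. For gene bodies and 1 kb around them, which also leaves out both, the count became 0 of 12. Of all peaks overlapping a protein-coding gene body, a set without the 1 kb around it, 2.77% passed as Down. Fewer peaks entered in these last 6, and the stricter threshold passes fewer by construction; at an adjusted p under 0.1 there were 3. Recentring fold changes on their running median by mean count left 0 and 2. The median of the AP-1 peaks lay between -0.048 and 0.030 under the alternatives, against 0.014 in the main setting. The uncertainty of this median was not computed. Of the 23 named peaks, recentring turned the sign of 2 that were near 0, the most counted BATF3 peak (-0.059) and the FOSB peak within the gene (-0.0029). The FOS peak was lost at an adjusted p under 0.01. Unknown depth, and low counts at many distal peaks, limit the precision.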
